A study of Homo sapiens with 2 samples.

Results

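TEC genes are annotated stretches of the human genome for which GENCODE has transcript evidence but which still await experimental proof. They were read in U2AF2 eCLIP libraries from HEL cells, a human line from an erythroleukemia that keeps traits of red cell and platelet precursors. The members were all genes of the counts table whose Ensembl identifier, without its version, has the gene type TEC in GENCODE 29 on any chromosome but Y. This gave 1055 of the 58347 genes in the table, out of 1060 TEC models in that annotation. The other 5 were not analysed here. The samples formed 1 group of 2 biological replicates of untreated HEL cells, and no input or control library was analysed here, so no value is an enrichment over input. With 2 libraries of 1 group there is no contrast between conditions. The comparisons below are therefore between kinds of TEC gene, given in each library and without a p-value.

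U2AF2 is the large subunit of U2AF, which recognises the end of an intron. It binds the polypyrimidine tract, a stretch rich in C and U just before the AG at the 3' splice site, and helps to bring U2 snRNP to the branch point. In eCLIP, cells are irradiated with ultraviolet light so that RNA stays bound to the protein, and an antibody then pulls out the RNA for sequencing. TEC genes are mostly single, unspliced exons, so they hold no 3' splice site of their own. Many lie over the introns or exons of a protein-coding gene, on either strand, and only some of those stretches contain a 3' splice site of that gene. In what follows the protein-coding gene over a TEC gene is called its host, whichever strand it is on.

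The table held 995428 counts on genes in replicate 1 and 1350116 in replicate 2, which was 2.66% and 2.60% of the uniquely mapped reads. Where a gene had 0 counts, its CPM (counts scaled to a library of 1000000) could still be as high as 2.98 in replicate 1 and 2.25 in replicate 2. These limits take 3 counts as the bound and cover counting error only. Whether reads were counted by strand is not given in the sources used here. For any TEC gene with a host on the other strand it is therefore uncertain which of the 2 genes its reads came from. Among the erythroid markers checked, TAL1 and GFI1B reached 10 counts in each library, as did 1 of 5 megakaryocyte markers (GP1BA). The erythroid markers GATA1 (6 and 14 counts), KLF1 (0 and 4), EPOR (7 and 24) and HBG2 (7 and 8) fell short. None of the 8 T cell, B cell and hepatocyte markers reached this minimum, which 15.4% of all genes in the table passed. PF4, CD3D and ALB were at 0 in both libraries, and the globin gene HBG1 had 0 and 1 counts. The same doubt about strand touches these marker counts.

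As TEC genes are mostly unspliced, the annotated 3' splice sites looked for were those of the host, on the strand opposite to the TEC gene. The annotation placed 126 such sites within 46 of the 200 TEC genes that lie opposite to a protein-coding gene, with none on the same strand. Those below belong to 6 of the TEC genes with the most counts and show how the tract varies among them. Each is written 5' to 3' on the host's strand as the last 26 bases of the intron and the first 4 bases of the exon (GENCODE 29 transcript sequence, GRCh38). Capitals mark the longest unbroken run of C and T before the AG.
AC006128.1 in AKAP8L, chr19:15398700-15398729, minus strand: tcttgctcttgctggaCCTTCCTCagcctc
AC006128.1 in AKAP8L, chr19:15398763-15398792, minus strand: ccttggtcgggtctgtctgCCCTCagggct
AC006128.1 in AKAP8L, chr19:15399407-15399436, minus strand: gtgacagtgcccatctgCTCCCacaggggc
AC022400.8 in SEC24C, chr10:73769321-73769350, plus strand: agTTCCCCCTTTCTCCTTTCCCCTagtgtg
AC022400.8 in SEC24C, chr10:73770254-73770283, plus strand: ccttttgCTCCCTTCCTTTTgtctagacaa
AC022400.8 in SEC24C, chr10:73770929-73770958, plus strand: ttatgaaCCCTgaattctggccgtagctta
AC004623.1 in MUM1, chr19:1373046-1373075, plus strand: ctattgagccccgtgCCCTCTCacaggcca
AC008894.3 in TPM4, chr19:16076021-16076050, plus strand: cccgTTCCTCgctctgtcgtccccaggtgg
AC018665.1 in EXOC7, chr17:76090478-76090507, minus strand: ctgacgTCCCCCTCCTggagatgaagggct
AP001273.1 in CEP295, chr11:93729585-93729614, plus strand: tctgtcataaaTTTCTTTTCCCCCagcaga

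In the SEC24C introns the 20 bases before the AG were 100% pyrimidine at the first site shown, 90% at the second and 55% at the third. The 3 AKAP8L sites had 75%, 65% and 70%, the MUM1 site 70%, the TPM4 site 85%, the EXOC7 site 60% and the CEP295 site 80%. Of the 125 sites whose whole window lay inside the TEC gene, 123 ended in AG, and the median pyrimidine content was 75% (quartiles 65% and 80%). Over whole TEC genes opposite to a host, the median on the host's strand was 50.2%.

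TEC genes as a class took a small and steady share of the reads. They held 24766 counts in replicate 1, which was 2.49% of all gene counts (exact 95% binomial interval 2.46 to 2.52), and 32899 in replicate 2, which was 2.44% (2.41 to 2.46). The mean was 2.46% ± 0.0362 (SD, n = 2). The minimum of 10 counts in each library was passed by 145 members, or 13.7%, against 15.4% of all genes in the table, so the class as a whole was close to the background. The median TEC gene held 0 counts over both libraries, against 1 for the median gene of the table, and 553 members (52.4%) had no count in either library. The counts were concentrated in few members. The leading member held 12.1% of the TEC counts in replicate 1 and 11.9% in replicate 2. The leading 10 held 53.0% ± 0.0655 and the leading 50 held 86.0% ± 0.115 (SD, n = 2).

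The strand of the overlapping protein-coding gene separated the members. TEC genes with a host on the opposite strand only were 200 of the 1055, and they held 81.3% of the TEC counts in replicate 1 and 80.9% in replicate 2. The 22 with a host on each strand held 9.95% and 10.6%. The 276 with a host on the same strand only held 1.70% and 1.60%, and the 557 between genes, with no protein-coding gene over them, held 7.07% and 6.87%. At least 10 counts in each library were reached by 91 of the 200 opposite-strand members (45.5%), 14 of the 22 with hosts on both strands (63.6%), 8 of the 276 same-strand members (2.90%) and 32 of the 557 between genes (5.75%). Among all genes of the table the same rule was met by 40.3% of those with a protein-coding host only on the opposite strand, 3.94% of those with one only on the same strand and 8.13% of those with none over their exons. The TEC genes thus followed the order seen over the whole table, and their shares lay near those of all genes in each of these 3 classes. For hosts on both strands no share over all genes was taken, so the 63.6% of TEC genes there has no background beside it.

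Counts per kb of exon gave the size of this difference. Opposite-strand members averaged 58.9 counts per kb in replicate 1 and 77.5 in replicate 2, against 0.768 and 0.955 for same-strand members. The ratio of the means was 76.7 in replicate 1 and 81.1 in replicate 2 (mean 78.9 ± 3.10, SD, n = 2). Among members with at least 10 counts in each library, where only 8 same-strand members remain, the ratio was 7.16 ± 0.229. Against the members between genes, at 2.65 and 3.45 counts per kb, the ratio of opposite-strand members was 22.2 and 22.5 (mean 22.4 ± 0.185), and 3.37 ± 0.0719 with that count minimum. Both ratios were far from 1 in each library. The 2 classes did overlap, since 33 opposite-strand members (16.5%) had no count at all, while the highest same-strand member had 168 over both libraries. Summed over the libraries, the median opposite-strand member had 15.5 counts, against 0 for the median same-strand member and the median member between genes.

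**Figure D1:**
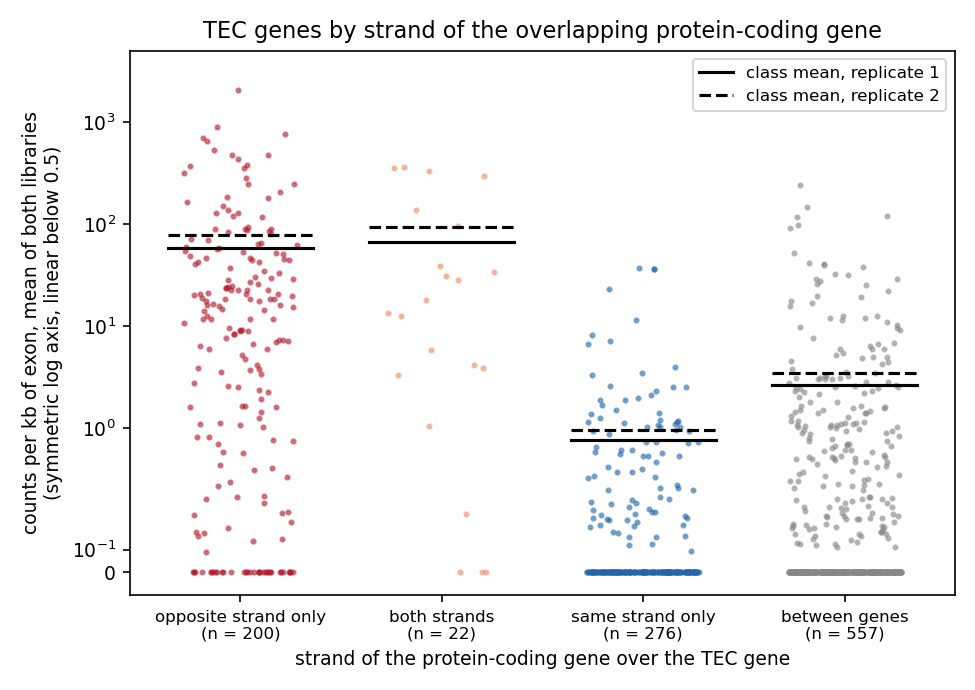
Counts per kb of exon (vertical symmetric log axis, mean of both libraries) for each of the 1055 TEC genes, grouped by the strand of the protein-coding gene over them; bars are the class means in replicate 1 (solid) and replicate 2 (dashed). The opposite-strand class averages 58.9 and 77.5 and the same-strand class 0.768 and 0.955, while points at 0 occur in every class.

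The leading members all lay opposite to a protein-coding gene, as can be read from single loci. AC006128.1 (chr19:15398696-15400356, plus strand), over introns and exons of AKAP8L, a gene of the A-kinase anchoring protein family on the minus strand, had 2998 counts in replicate 1 and 3923 in replicate 2, or 2974 and 2943 CPM. AKAP8L itself had 3 and 8 counts. Per kb of exon this was 1805 and 2362 for AC006128.1, against 0.590 and 1.57 for AKAP8L, and the host was lower in both libraries.

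AC022400.8 (chr10:73769264-73772862, minus strand) covers the end of SEC24C, a gene for a subunit of the COPII vesicle coat, and the start of the fucosyltransferase gene FUT11. It had 1901 and 2756 counts, against 10 and 20 for SEC24C and 20 and 28 for FUT11. AC004623.1 (chr19:1372238-1374364, minus strand), mostly over an exon of a non-coding transcript of MUM1, had 1635 and 2163 counts, against 7 and 8 for MUM1. Both TEC genes stood far above their hosts in both libraries. AC008894.3 (chr19:16074293-16077395, minus strand), mostly over introns of the tropomyosin gene TPM4, had 1352 and 1570 counts, against 38 and 56 for TPM4.

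AC015813.5 (chr17:58006674-58008187, plus strand) covers the beginning of SRSF1, the gene of an SR splicing factor, and had 1062 and 1235 counts, against 12 and 12 for SRSF1 and 0 and 0 for its other host AC015813.2. Most of its bases lie outside any protein-coding gene, and the annotation places no host 3' splice site within it. AC067930.6 on chromosome 8, opposite to NAPRT and the elongation factor gene EEF1D, had 1192 and 1634 counts, against 4 and 5 for NAPRT and 12 and 16 for EEF1D. It shares exon bases with another gene on its own strand. AC018665.1 (chr17:76090308-76091669, plus strand), over introns and exons of the exocyst gene EXOC7, had 790 and 1124 counts, against 1 and 4 for EXOC7.

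The rest of the 12 leading members had between 461 and 1165 counts in a library. AL031595.1, opposite to the parvin gene PARVG, had 557 and 737 counts, against 0 and 5 for PARVG. AC120057.3, opposite to the autophagy gene GABARAP and the phosphatase gene CTDNEP1, had 555 and 602, and AP001273.1, opposite to the centrosome gene CEP295, had 461 and 694. CEP295 was among the higher hosts, at 167 and 256 counts. The other 2 of the 12, AC132872.4 and AC020978.9, had hosts on both strands. AC132872.4 had 872 and 1148 counts, with the casein kinase gene CSNK1D at 67 and 84 on the opposite strand and the lactate transporter gene SLC16A3 at 66 and 79 on its own. AC020978.9 had 758 and 1165 counts, with the amino acid transporter gene SLC7A6 at 121 and 133 on the opposite strand. Its same-strand host SLC7A6OS had 873 and 1241, the highest counts of any host named here, and that gene too lies opposite to SLC7A6. AD000864.1, the next of the intronic members with hosts on both strands, had 260 and 367 counts. Its opposite-strand host HCST, a gene for a signalling adaptor of natural killer and T cells, had 4 and 5, and its same-strand host NFKBID had 0 and 1.

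**Figure D2:**
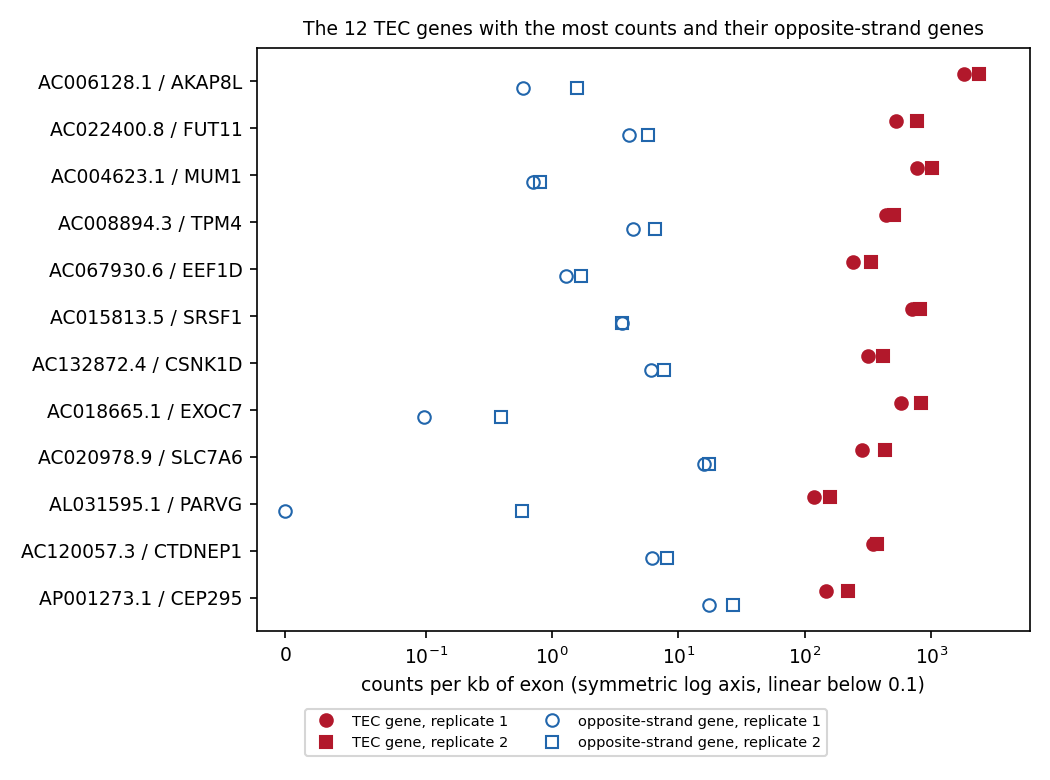
Counts per kb of exon (horizontal symmetric log axis) for the 12 TEC genes with the most counts (filled) and for the opposite-strand protein-coding gene of each with the most counts of its own (open), with replicate 1 as circles and replicate 2 as squares. Each TEC gene lies to the right of its opposite-strand gene in both libraries, for example 1805 and 2362 for AC006128.1 against 0.590 and 1.57 for AKAP8L.

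The same comparison was made over all opposite-strand members. The 200 opposite-strand members made 213 pairs with 193 protein-coding genes, since some members lie across more than one host and some hosts carry several members. Per kb of exon the TEC gene was higher than its opposite-strand host in both libraries in 136 pairs and lower in both in 37, and in 40 the libraries differed or the values tied. Both values are scaled to annotated exons, so a TEC gene within a host intron covers sequence that the host's exons do not. In 102 pairs the TEC gene had at least 10 counts in each library. The host also did in 33 of these, and the median host total over both libraries was 11 counts.

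Location within the host was compared next among opposite-strand members. A member was assigned to the part of the host (coding sequence, 3' untranslated region, 5' untranslated region, exon of a non-coding transcript or intron) that covers more than 50% of its bases. By this rule 140 of the 200 lay in introns, 24 in 3' untranslated regions, 4 in exons of non-coding transcripts and 1 in coding sequence. In the other 31 no part of the host held a majority. These are called members with no majority, and they include AC015813.5, most of whose bases lie outside any host. Intronic members averaged 29.9 counts per kb in replicate 1 and 40.0 in replicate 2, against 66.7 and 84.1 for members in 3' untranslated regions. The ratio of intron to 3' untranslated region was 0.448 and 0.476 (mean 0.462 ± 0.0197, SD, n = 2). It was 0.187 ± 0.0165 when any base of a 3' untranslated region put a member in that class. By that second rule intronic members held no exon base of the host, which set 106 members against 47. The 47 members with only other exon bases were left out of it. They averaged 125 and 163 counts per kb, against 90.4 and 115 for its 3' untranslated class. By the majority rule the medians ran the same way as the means, at 14.5 counts over both libraries for intronic members and 25 for those in 3' untranslated regions. At least 10 counts in each library were reached by 60 intronic members (42.9%) and 12 of the 24 in 3' untranslated regions, against the 40.3% of all opposite-strand genes. The values of single members in these locations overlap.

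Single members show the spread within each location. In 3' untranslated regions, AC114546.3 (chr15:34978351-34980084, plus strand), which lies wholly within that of the zinc finger gene ZNF770, had 338 and 513 counts, against 13 and 1 for ZNF770. AC106886.4, opposite to the ubiquitin ligase gene RNF40, had 191 and 253 counts, against 20 and 27. AC114546.3 holds no host 3' splice site, while AC106886.4 holds 3. The 4 members over exons of non-coding transcripts averaged 676 and 903 counts per kb, which rested largely on AC006128.1, since without it the means were 300.3 and 417. The 31 members with no majority averaged 106 and 137 counts per kb, and with AC022400.8 left out 91.9 and 116.

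Members holding a host 3' splice site were then set against those without one. The 46 members with at least 1 site averaged 140.3 counts per kb in replicate 1 and 187 in replicate 2, against 34.6 and 44.8 for the 154 without. The ratio of means was 4.05 and 4.18 (mean 4.12 ± 0.0914, SD, n = 2). The medians did not show this difference. In replicate 1 the median was 7.46 counts per kb with a site, against 7.62 without, and the ratio of medians was 0.979 in replicate 1 and 0.860 in replicate 2 (mean 0.920 ± 0.0843, SD, n = 2). The higher mean thus came from the upper end of the class, where 5 of the 6 members with the most counts hold a site. At least 10 counts in each library were reached by 25 of the 46 with a site (54.3%) and 66 of the 154 without (42.9%). Members with a site were longer, with a median of 2379 bases against 1135, and the part of length in the count of members reached was not tested.

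Within introns alone, the 25 members with a site averaged 79.3 and 103 counts per kb, against 19.1 and 26.4 for the 115 without, while their medians were 5.44 and 6.53 against 6.98 and 9.82. In 3' untranslated regions the means ran the other way, at 19.7 and 26.5 for the 4 members with a site and 76.1 and 95.6 for the 20 without. With 4 members in a class this order rests on single genes. Among the 115 intronic members without a site, the 48 whose next downstream host 3' splice site lay more than 10000 bases away had a median of 4.5 counts, summed over the libraries. The median was 14 for the 33 members with that site beyond 3000 and up to 10000 bases away, and 30.5 for the 20 beyond 1000 and up to 3000 bases. For the 14 members within 1000 bases it was 26.5, so the values did not follow distance in steady order. These distance classes were chosen after the values were seen.

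**Figure D3:**
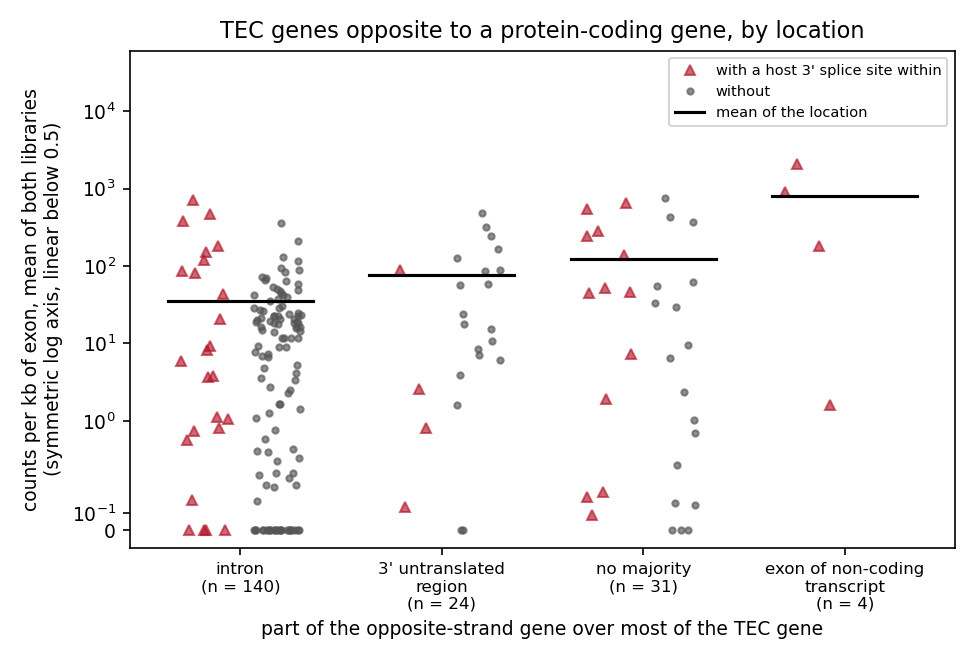
Counts per kb of exon (vertical symmetric log axis, mean of both libraries) for opposite-strand TEC genes by the part of the host over most of their bases, leaving out 1 in coding sequence; triangles hold a host 3' splice site, dots do not, and lines are location means. Intronic members start at 0 with and without a site. The highest averages 703 with one (AC018665.1) and 358 without (AC120057.3). All 4 members over exons of non-coding transcripts hold a site.

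The sequence of the TEC genes was also read for long pyrimidine runs, taken as at least 15 C or T in a row. On the host's strand such a run was present in 65 of the 200 opposite-strand members (32.5%), and on the TEC gene's own strand in 67 (33.5%). Same-strand members had one on their own strand, which is also the host's, in 104 of 276 (37.7%). Long runs were therefore not rarer in the class with few counts. Within the opposite-strand class, the 65 members with a run on the host's strand averaged 108 and 139 counts per kb, against 35.4 and 48.0 for the 135 without. Their medians were 11.2 and 17.1, against 7.06 and 9.64, and members with a run were longer, with a median of 2209 bases against 892. A match is a feature of the letters only and does not mark a binding site.

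Same-strand members were nearly all intronic, 265 of 276, and only 1 lay in a 3' untranslated region, so the location comparison could not be made on that strand. The 265 averaged 0.769 and 0.955 counts per kb, and 7 of them reached 10 counts in each library. By mean CPM the highest was AC008957.3 (chr5:36667717-36669958, plus strand), within an intron of the glutamate transporter gene SLC1A3, with 83 and 82 counts. SLC1A3 had 42 and 66. AC018445.4, within the transcription factor gene NFATC1, had 70 and 98 counts, against 80 and 125 for NFATC1, and AC092135.3, within CMIP, had 67 and 67 counts, against 12 and 21. These 3 members had 30.6 to 42.8 counts per kb in each library. That was below the opposite-strand class means of 58.9 and 77.5, but above the medians of that class, 7.62 and 11.7.

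Members between genes were the largest class and mostly empty, with 337 of 557 (60.5%) at 0 in both libraries. The highest was TMEM75, which lies opposite to the long non-coding RNA gene PVT1, with 226 and 285 counts. AC105339.5 (chr15:82738386-82739122, plus strand), opposite to the actin pseudogene ACTG1P17, had 153 and 203 counts, and AC022497.1 (chr3:138482065-138485755, plus strand), which overlaps no gene and begins 379 bases past the end of ESYT3, had 94 and 145. Multimapping reads were tallied apart from the gene counts, which makes the value of a member over a pseudogene uncertain. When the class was divided by other gene types, a division chosen after the values were seen, 55 members with a non-coding gene or pseudogene on the opposite strand only averaged 13.6 and 16.4 counts per kb. The 60 with one on the same strand only averaged 0.116 and 0.235, and the 425 with no gene of any type over them 1.69 and 2.35. The 17 with such genes on both strands averaged 0.385 and 0.365. At least 10 counts in each library were reached by 9 of the 55, 0 of the 60, 23 of the 425 and 0 of the 17. Over all genes with no protein-coding gene over their exons the share was 8.13%, and it was not divided by these other gene types. Members with a non-coding gene on both strands were thus low, while those with protein-coding hosts on both strands averaged 67.5 and 94.1 counts per kb.

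Single-exon genes of other types were read in the same strand classes. Opposite to a protein-coding gene, 200 single-exon TEC genes averaged 68.2 ± 13.1 counts per kb (SD over the 2 libraries), against 94.0 ± 19.7 for 589 antisense RNA genes and 30.1 ± 6.51 for 1826 processed pseudogenes. The minimum of 10 counts was passed by 45.5% of these TEC genes, 52.3% of the antisense RNA genes and 28.1% of the processed pseudogenes. On the same strand as a protein-coding gene, 274 single-exon TEC genes averaged 0.867 ± 0.133 counts per kb, against 1.06 ± 0.200 for 328 sense intronic genes and 1.13 ± 0.293 for 1006 processed pseudogenes. The 7 sense intronic genes opposite to a protein-coding gene averaged 13.0 ± 4.29 counts per kb, and 0 of them passed the minimum, against 1.83% of the 328 on the same strand. With a protein-coding gene on each strand, TEC genes averaged 80.8 ± 18.8 counts per kb (22 genes) and processed pseudogenes 12.6 ± 2.66 (45 genes). Antisense RNA genes averaged 579 ± 132 (19 genes) and sense intronic genes 43.6 ± 14.0 (23 genes). By these means the pseudogenes lay below their opposite-strand level, and the TEC, antisense RNA and sense intronic genes above theirs. Median counts over both libraries did not all follow. With hosts on both strands the antisense RNA median was 25, against 30 on the opposite strand only, and the sense intronic median was 3 in each class. For TEC genes the medians were 40.5 against 15.5, and for processed pseudogenes 2 against 6. The SDs here include the difference in depth between the libraries, and TEC genes were longer, with a median of 1502 bases in the opposite-strand class, against 741 for antisense RNA genes and 479.5 for processed pseudogenes. No test of the difference between gene types was made.

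**Figure D4:**
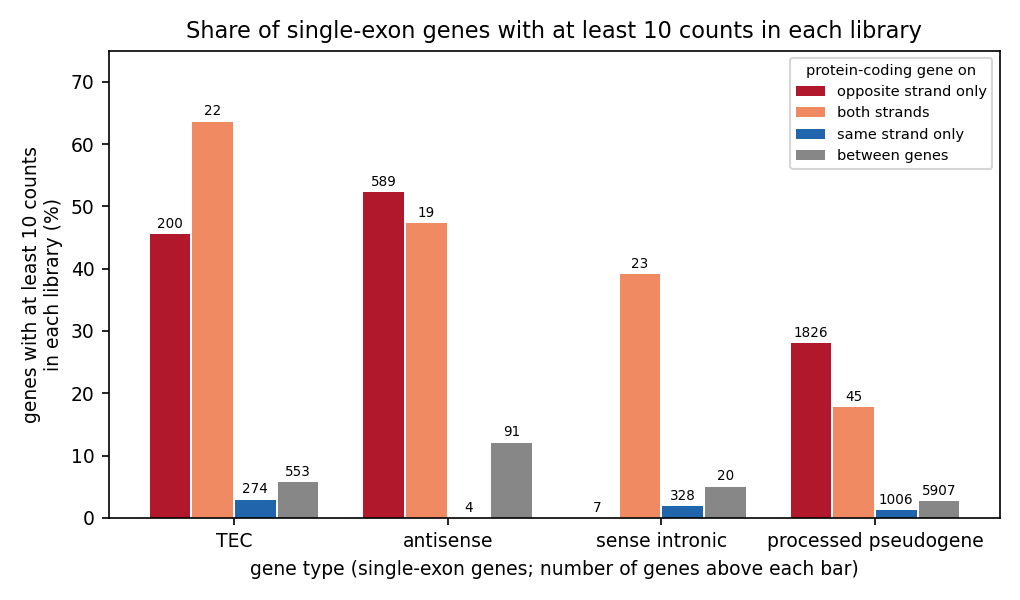
Percentage of single-exon genes that passed the minimum of 10 counts per library, for TEC genes and 3 other gene types, by strand of the protein-coding gene over them; the number above each bar is the number of genes. TEC genes reach 45.5% on the opposite strand and 2.92% on the same strand, close to the antisense RNA genes on the opposite strand at 52.3%.

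The libraries were compared gene by gene with an exact binomial test (two-sided, at the scaled library sizes), adjusted by Benjamini-Hochberg over the 8983 genes of the table that passed the same minimum. That test called 0 of the 145 TEC genes that could be tested, against 0.501% of all genes tested (0.39% with more in replicate 2, 0.111% with more in replicate 1). In 13 of the 145 its unadjusted p was below 0.05. The share of all tested genes below that value was not taken, so this count has no background beside it. An exact test in edgeR also called 0, but its common dispersion was estimated from the difference between these same libraries, so it adds no separate check. Among the 67 members with at least 50 counts in each library, the ratio of CPM in replicate 2 to replicate 1 lay between 0.643 and 1.37, with a median of 1.00. With library sizes taken as plain totals the binomial test called 3 members, all lower in replicate 2 and all opposite to a protein-coding gene, namely AC008894.3, AC015813.5 and AC120057.3. Their ratios at the scaled sizes were 0.878, 0.879 and 0.820. As both libraries belong to the same group, the test speaks only to how far they differ beyond counting error.

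**Figure D5:**
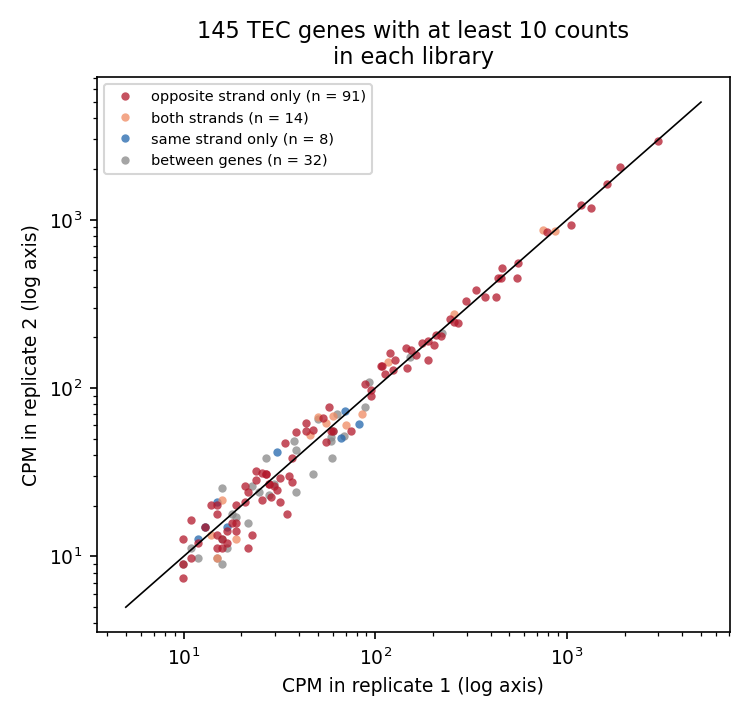
CPM in replicate 2 (vertical log axis) against replicate 1 (horizontal log axis) for the 145 TEC genes that passed the minimum of 10 counts per library, coloured by the strand of the overlapping protein-coding gene; the line marks equal values. Points lie along the line in all 4 classes, and the upper end is made of members opposite to a protein-coding gene or with hosts on both strands.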

How the data were processed

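U2AF2 eCLIP was measured in 2 HEL libraries. The tools and build named in the submitters' processing notes are STAR 2.7.0f, cutadapt and GRCh38.p10. The authors deposited raw counts per gene, as whole numbers, with tallies of ambiguous, multimapping, unmapped and no-feature reads, which stayed out of library sizes. How reads were counted, by which strand and annotation, and how PCR duplicates were treated is not given in the sources used here, and intervals would be too narrow if duplicates remained.

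Genes were matched to GENCODE 29 (GRCh38), where 263 of 58347 had no model and all 1055 members had the same identifier version. Exons were merged per gene. Strand classes used any base of a protein-coding gene's span over those exons. 3' splice sites came from all transcripts of the host with introns of at least 30 bases. CPM used TMM factors of 1.01 and 0.987 (edgeR 4.0.16, R 4.3.3). DESeq2 1.42.0 gave alternative size factors. Other steps used Python 3.11.15, scipy 1.17.1 and pandas 2.3.3. The binomial test was run on simulated counts that held counting error only, so that run cannot show how it behaves with further variation between libraries. The quasi-likelihood test needs groups and was not used.

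The members and lists were chosen with earlier results of these data known. Named members were the 12 with the highest mean CPM, the 5 with the most counts per kb among those with 50 or more counts per library, the 3 highest of each class of at least 10 members, any that differed between libraries, and their hosts; 1 such member with its host, and 1 marker gene, are not reported here. Alternatives changed the count minimum, the class rules, the scaling, the summary and the libraries.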

Additional observations from a re-analysis of the deposited data

How the results depend on the processing

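Leaving out each replicate gave 147 to 166 members with at least 10 counts, a TEC share of 2.44% to 2.49%, and ratios of 76.7 to 81.1 for opposite over same strand, 22.2 to 22.5 for opposite strand over between genes, 0.448 to 0.476 for intron over 3' untranslated region, and 4.05 to 4.18 for members with a host 3' splice site over those without. With at least 1 count in each library 310 members were counted, and without mitochondrial genes and the 10 leading genes the TEC share was 2.58%. For the same 4 ratios in that order, totals over total length gave 72.2, 30.9, 0.598 and 3.77, and members wholly within or outside a host 72.6, 20.7, 0.403 and 5.55. A minimum of 10 counts in each library gave 7.16, 3.37, 0.518 and 3.46; it removes most low members of the same-strand and intergenic classes. Members with no other gene over their exons on their strand gave 72.4, 21.7 and 4.0 for the strand ratios and the splice-site ratio, and leaving out the leading member of each class gave 20.4 for opposite strand over between genes and 3.45 for the splice-site ratio. Any base of a 3' untranslated region, with intronic members free of host exon bases, gave 0.187 for the location ratio. Sites of protein-coding transcripts gave 4.23 for the splice-site ratio. The median in place of the mean, chosen after seeing the data, turned the splice-site ratio to 0.920; the cause was not tested. Plain library totals called 3 members between the libraries in place of 0. The other alternatives moved these values by less than the replicate spread, or the counts by less than 1.5 times. The median gave no value for the strand ratios, whose denominators are 0, and leaving out a library gave none for the comparison of libraries. No paired analysis was possible because there is 1 group. A median of 0 counts in 2 of the strand classes limits what depth can show there.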

Other observations

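TEC counts were unevenly spread over chromosomes. Chromosome 19 held 73 of the 1055 members (6.92%) and 32.3% ± 0.479 of the TEC counts (SD, n = 2), and chromosome 17 held 100 members (9.48%) and 20.5% of the counts in replicate 1 and 19.5% in replicate 2. Chromosome 16 carried the most members, 132 (12.5%), and 11.3% ± 0.121 of the counts. AC006128.1, AC004623.1 and AC008894.3 are all on chromosome 19. Across the 200 opposite-strand members, counts per kb had a Spearman rho of 0.0281 in replicate 1 and 0.0227 in replicate 2 with the pyrimidine content on the host's strand, of -0.204 and -0.163 with the T content on that strand, of 0.176 and 0.145 with the number of host 3' splice sites, and of 0.00489 and -0.0258 with exon length. These are descriptions over genes, some of which share a host.

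Among the 425 members with no gene of any type over them, the 305 farther than 5000 bases from a protein-coding gene averaged 1.10 and 1.56 counts per kb. The 14 within 5000 bases past the 3' end of an opposite-strand protein-coding gene averaged 7.38 and 13.0, and 2.45 and 4.56 without AC021106.3, the highest of them, named after its values were seen. The 45 near the 5' end of an opposite-strand gene averaged 3.12 and 3.63, the 51 near the 3' end of a same-strand gene 2.10 and 2.76, and the 10 near the 5' end of a same-strand gene 3.15 and 3.63. Without AC021106.3 the first of these classes was thus not set apart from the others. These classes were chosen after the values were seen.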
